A study of Mus musculus with 6 samples.

Results

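The genes described here encode 8 neuropeptides and 2 calcium-binding proteins that are widely used to name classes of interneurons. They are Sst, Npy, Cck, Vip, Tac1, Penk, Pdyn and Cort, followed by Calb1 and Pvalb. They were taken by gene symbol, and each had 1 probe set with a single symbol, so 10 of the 19938 genes measured are described. RNA was compared between CTIP2:GFP+ and CTIP2:GFP- cells that had been sorted from cultures of mouse embryonic stem cells on day 11, day 12 and day 13 of differentiation, with 1 array per fraction and day. Both fractions came from the same knock-in line, made in 129SVEV cells, in which GFP is translated from an internal ribosome entry site behind the Ctip2 coding sequence and the Neo cassette was kept. All cells grew as floating aggregates by the SFEBq method and received the WNT inhibitor WNT-C59 and the TGF-beta receptor inhibitor SB-431542 at the start of culture. No day was repeated. The 3 arrays of a fraction stand in for replicates. A p-value for the fractions therefore reflects how much their difference varied from day to day. The test draws this variation towards that of all genes. Precision is limited by there being 6 arrays.

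Neuropeptides are cut from larger precursors inside dense-core vesicles and act through receptors coupled to G proteins. In the adult cortex somatostatin, parvalbumin and vasoactive intestinal peptide mark GABAergic interneurons that hardly overlap, whereas neuropeptide Y, cholecystokinin and calbindin each occur in several classes. The cells of the Sst and Pvalb classes arise in the medial ganglionic eminence of the ventral forebrain, and many Vip cells arise in the caudal ganglionic eminence. Sst and Npy are switched on early in migrating interneurons, and Pvalb appears only late, after birth. Calb1, Cck, Penk and Tac1 are not restricted to interneurons, since some projection neurons make them too. The array measures RNA of a bulk sample, so fewer cells of a type and less RNA per cell cannot be told apart.

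Bcl11b, which encodes CTIP2 and drives the reporter, was checked first. Its log2 signal was 8.76, 7.91 and 8.54 in GFP+ cells and 6.44, 6.27 and 6.88 in GFP- cells on day 11, day 12 and day 13. It was higher in GFP+ cells on every day, by 3.65-fold on average (limma adjusted p = 0.025). The GFP- array of day 13 stood apart from the rest. The standard deviation over its probe sets was 1.11, against 1.29 to 1.48 on the other 5 arrays, and its median signal was the highest of the 6 arrays at 5.52, against 5.32 to 5.44. No gene on the array passed the limma test without day 13 or with each array centred on its median, so every call given here, that of Bcl11b included, is lost under both. At an unadjusted p under 0.05 there were 3064 and 2615 genes.

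The 5′ flanks of 4 of the genes are shown because Sst is the textbook example of a neuropeptide gene with a cyclic AMP response element (CRE), the palindrome TGACGTCA. Sst, Npy and Cort are members whose GFP+ signals all lay above their GFP- signals, and Vip is a member for which they did not. Each line holds the 150 bases before the transcript start in RefSeq (GRCm38.p6), with the CRE half-site TGACG or its reverse complement CGTCA in capitals and the whole CRE in capitals for Sst.
Sst (chr16:23890845-23890994, - strand): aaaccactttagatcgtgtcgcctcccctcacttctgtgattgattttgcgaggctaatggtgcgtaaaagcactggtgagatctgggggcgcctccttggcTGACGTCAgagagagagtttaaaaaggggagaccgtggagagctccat
Npy (chr6:49822560-49822709, + strand): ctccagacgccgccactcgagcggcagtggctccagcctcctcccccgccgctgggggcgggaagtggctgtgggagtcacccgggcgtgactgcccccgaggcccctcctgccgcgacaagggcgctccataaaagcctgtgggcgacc
Cort (chr4:149126764-149126913, - strand): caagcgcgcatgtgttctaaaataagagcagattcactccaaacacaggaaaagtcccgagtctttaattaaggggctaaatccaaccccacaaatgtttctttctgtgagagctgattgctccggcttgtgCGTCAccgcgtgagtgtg
Vip (chr10:5639068-5639217, + strand): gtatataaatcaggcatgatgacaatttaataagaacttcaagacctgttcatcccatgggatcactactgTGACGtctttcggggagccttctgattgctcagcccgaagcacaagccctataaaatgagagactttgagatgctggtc
The CRE of Sst begins 48 bases before the start. Half-sites lie 79 bases before the start of Vip and 18 bases before that of Cort, and the Npy line holds none. RefSeq windows of 300 bases, from 250 before to 50 after the start, were at hand for 8 of the 10 genes, as 10 windows, and the entries of Penk and Calb1 are missing. On either strand, the CRE was found in 1 of these 10 windows and in 1.79% of 32851 windows of all genes. The half-site, which each CRE contains, was found in 5 of 10 and in 20.8%, and the homeodomain core TAATTA in 2 of 10 and in 5.29%. A match of letters is a description and not a site of binding.

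Among the 10 genes, Sst, Calb1 and Npy were over 2-fold higher in CTIP2:GFP+ cells on average over the 3 days, and Sst passed the test. A mean difference over 2-fold higher was found for 1.97% of all genes. By limma, 1 of the 10 genes was higher at an adjusted p below 0.05, where 0.797% of all genes were, and 0 were lower, where 0.567% of all genes were. None of the 10 was over 2-fold lower on average (1.02% of all genes). The median difference of the 10 genes was 0.02 on the log2 scale, against -0.05 over all genes, so the list as a whole lay close to the middle of the array.

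**Figure D1:**
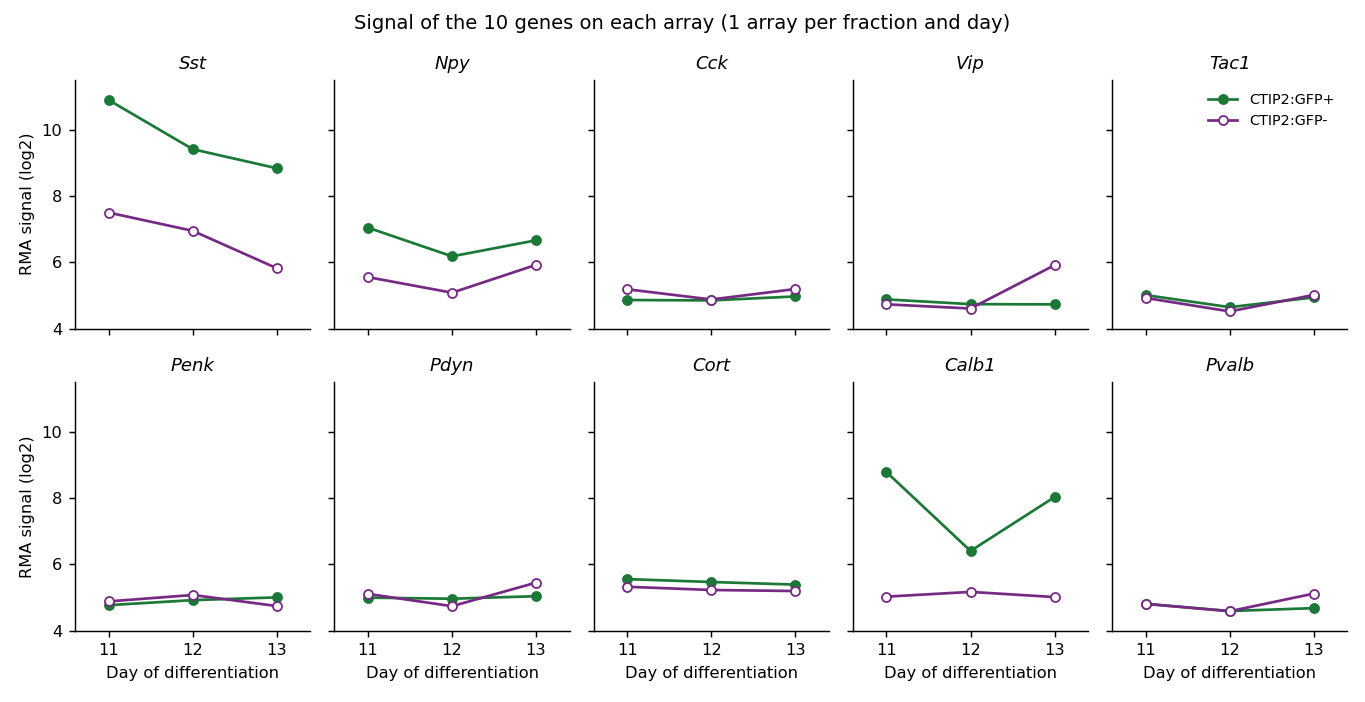
Deposited log2 RMA signal (vertical axis) of each of the 10 genes by day of differentiation (horizontal axis), 1 point per array, filled for CTIP2:GFP+ and open for CTIP2:GFP- cells. The lines of Sst, Calb1 and Npy are apart on every day, Sst is down from 10.89 to 8.83 in GFP+ cells, Calb1 dips to 6.40 on day 12, and Vip reaches 5.91 on the GFP- array of day 13.

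Sst encodes somatostatin, an inhibitory peptide of interneurons that contact dendrites. Its log2 signal was 10.89, 9.41 and 8.83 in GFP+ cells and 7.50, 6.95 and 5.82 in GFP- cells on day 11, day 12 and day 13. Every GFP+ array lay above every GFP- array, with 1.33 log2 units between the lowest GFP+ and the highest GFP- value. The difference was 3.39, 2.46 and 3.01 on the 3 days, a mean of 2.95 with a standard error of 0.21, or 7.74-fold, with a 95% interval of 2.44 to 3.46 on the log2 scale (limma adjusted p = 0.024). The size varied little with the processing, from 2.49 to 3.20 over 12 alternatives, but the call depended on it. Sst passed in 7 of the 12. The adjusted p was 0.099 with no replicate block for the day, 0.052 without day 13 and 0.098 with each array centred on its median. By Student's t-test it was 0.446. In an unblocked fit that left out the day 13 GFP- array it was 0.123, where the difference was 2.49.

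The Sst signal was lower on each later day in both fractions, in the order day 11, day 12, day 13. From day 11 to day 13 it fell by 2.05 in GFP+ cells and fell by 1.68 in GFP- cells on the log2 scale. The last GFP- value, 5.82 after 6.95 on day 12, comes from the day 13 array that stood apart from the rest. A straight line over the days fell by 0.93 per day with a standard error of 0.13. Its unadjusted limma p was 0.000233 and its adjusted p was 0.997, so the slope did not pass over all genes. The fit of this line had no block for the day, so the 2 arrays of a day counted as separate observations. No day was repeated, so the error and unadjusted p of the line do not measure how cultures of 1 day vary. No gene on the array passed the test of the slope (0%). An unadjusted p under 0.05 was found for 174 of the 19938 genes, with Sst the only one of the 10 among them. The slopes of the fractions differed by -0.19 per day with a standard error of 0.28, and neighbouring days of 1 fraction cannot be compared by a test because each has 1 array.

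Npy encodes neuropeptide Y, which is made by many somatostatin interneurons and by neurogliaform cells. Its log2 signal was 7.04, 6.18 and 6.66 in GFP+ cells and 5.55, 5.08 and 5.92 in GFP- cells on day 11, day 12 and day 13. The groups did not overlap, but only 0.26 log2 units lay between the GFP+ array of day 12 and the GFP- array of day 13. The difference was 1.49, 1.10 and 0.74, a mean of 1.11 with a standard error of 0.18, or 2.16-fold with an interval of 1.57-fold to 2.95-fold. It did not pass the test (limma adjusted p = 0.060). Without day 12 it passed (difference 1.11, adjusted p = 0.024), and the adjusted p was 0.095 in the unblocked fit that left out the day 13 GFP- array, where the difference was 1.31. In both fractions Npy was lowest on day 12, at -0.67 relative to the mean of day 11 and day 13 in GFP+ cells and at -0.65 in GFP- cells.

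Cort encodes cortistatin, a peptide related to somatostatin that shares its receptors. Cort stood at 5.56, 5.47 and 5.39 in GFP+ cells and at 5.33, 5.23 and 5.20 in GFP- cells on day 11, day 12 and day 13, in log2 units. The groups did not overlap, with 0.07 log2 units between them, and the daily differences of 0.23, 0.24 and 0.19 were close to each other. The mean of 0.22 had a standard error of 0.13 and an interval of -0.11 to 0.55 (limma adjusted p = 0.517), since limma draws the error of a gene towards that of all genes, whose median standard error was 0.16. The difference stood between 0.20 and 0.30 in 11 alternatives and passed in 0 of them.

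Calb1 encodes calbindin, a cytoplasmic calcium buffer with EF-hand domains. Its log2 signal was 8.78, 6.40 and 8.03 in GFP+ cells and 5.03, 5.17 and 5.02 in GFP- cells on day 11, day 12 and day 13. The GFP- arrays spanned 0.16 log2 units and all lay below their own array medians, while the GFP+ arrays spanned 2.38. The log2 difference was 3.75, 1.23 and 3.01 on the 3 days. These are differences of signals, and with so dim a GFP- signal they set no upper limit on the fold in RNA. The mean of 2.67 had a standard error of 0.46 and an interval of 1.54 to 3.80, and missed the threshold (limma adjusted p = 0.062). Without day 12 the mean was 3.38 and passed (limma adjusted p = 6.6e-05). Without day 11 it was 2.12 and passed (adjusted p = 0.000298), and without day 13 it was 2.49 and did not pass (adjusted p = 0.180). With a day left out, limma draws the error of a gene mostly from that of all genes. Without day 11 the standard error was 0.34 for Calb1 and 0.30 for both Cck and Cort, so these passes are no firmer than the full fit.

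Pvalb encodes parvalbumin, the calcium buffer of fast-spiking basket cells. Pvalb stood at 4.81, 4.60 and 4.68 in GFP+ cells and at 4.81, 4.59 and 5.12 in GFP- cells on the log2 scale, all below the medians of their arrays. The fractions differed by 0.00 and 0.01 on day 11 and day 12 and by -0.44 on day 13, with a mean of -0.14 and an interval of -0.53 to 0.25 (limma adjusted p = 0.714). The groups overlapped.

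Vip encodes vasoactive intestinal peptide, which marks interneurons that inhibit other interneurons. The log2 signal of Vip was 4.88, 4.74 and 4.73 in GFP+ cells and 4.73, 4.61 and 5.91 in GFP- cells on day 11, day 12 and day 13. The 5 other values lay below their array medians, and only the GFP- array of day 13 lay above. The difference was 0.15, 0.13 and -1.18, a mean of -0.30 with an interval of -1.02 to 0.42 (limma adjusted p = 0.679). Without day 13 the mean was 0.14. Vip was the only 1 of the 10 genes over 2-fold lower on any day, and on day 13 2.29% of all genes were.

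Cck, Tac1, Penk and Pdyn encode the precursors of cholecystokinin, of substance P and neurokinin A, of the enkephalins, and of the dynorphins. All of their values lay below the medians of their arrays. Cck stood at 4.86, 4.85 and 4.97 in GFP+ cells and at 5.19, 4.88 and 5.19 in GFP- cells, with differences of -0.32, -0.03 and -0.22 and a mean of -0.19 (limma adjusted p = 0.598). The groups still overlapped. Tac1 stood at 5.01, 4.65 and 4.94 in GFP+ cells and at 4.93, 4.52 and 5.02 in GFP- cells, with a mean difference of 0.05. The opioid precursors also changed sign between days. Penk stood at 4.77, 4.92 and 5.01 in GFP+ cells against 4.88, 5.08 and 4.75, and Pdyn at 5.0, 4.97 and 5.04 against 5.11, 4.74 and 5.45. Their mean differences were -0.002 and -0.10.

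**Figure D2:**
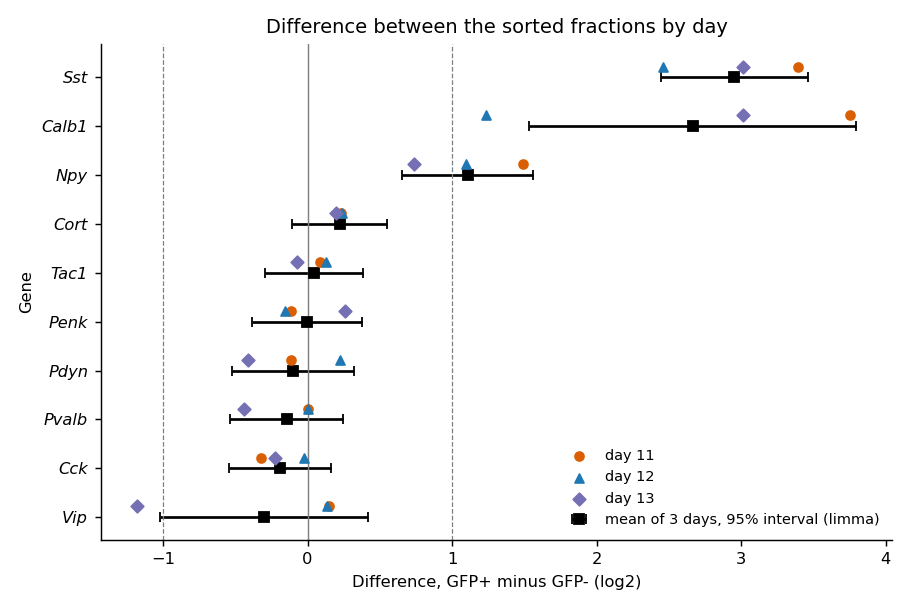
Log2 difference of GFP+ minus GFP- cells (horizontal axis) for each of the 10 genes (vertical axis, ordered by the mean), with coloured symbols for day 11, day 12 and day 13 and a square for the mean with its 95% limma interval. Dashed lines mark 2-fold, which the means of Sst, Calb1 and Npy exceed, while the intervals of the other 7 genes span 0.

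The 7 genes under 2-fold had mean differences of -0.30 to 0.22, intervals within -1.02 to 0.55, and adjusted p values of 0.517 to 0.996. Of their 42 values, 38 were below the median of the array. No difference was shown for these dim signals, and differences within the intervals were not excluded. Counted by overlap, the GFP+ arrays all lay above the GFP- arrays for 4 of the 10 genes, where 9.05% of all genes showed this, and for 0 genes all below, where 7.84% did. The other 6 genes overlapped. A single direction on all 3 days was seen for 5 genes, of which 4 were higher (16.9% of all genes) and Cck was lower (21.4%).

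By day, 3 of the 10 genes were over 2-fold higher on day 11 (1.85% of all genes), 3 on day 12 (1.48%) and 2 on day 13 (9.18%). Sst and Calb1 were over 2-fold on each day, and Npy was 1.67-fold on day 13. The interaction of fraction and day was not past the test for any of the 10, nor for any gene (0%). By unadjusted limma p, 108 of the 19938 genes and 0 of the 10 were under 0.05. So few genes were under it that 0 of 10 is no result about the members. The lowest of the 10 was Vip with 0.0815 (limma adjusted p = 0.999).

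In GFP+ cells the signals of Calb1 and Npy were lower on day 12 than on both other days. Relative to the mean of day 11 and day 13, Calb1 was -2.0 and Npy -0.67 on the log2 scale, while Sst lay between its values of day 11 and day 13. The medial ganglionic eminence factor Lhx6 was -2.21 and Dlx1 -1.42. By contrast, Calb2, which encodes calretinin, was 2.72 higher on day 12, Cnr1, a cannabinoid receptor, 2.05, and Reln, the secreted protein reelin, 1.51. The paper takes Reelin as a marker of layer I. Whether these signals came from interneurons was not tested. Calb2 and Lhx6 were named after their values had been seen. Calb2 stood at 5.38, 8.22 and 5.63 in GFP+ cells and at 5.28, 6.11 and 5.93 in GFP- cells. The 20 other markers of interneuron classes did not all go this way, with a median of 0.16 and with Prox1 at -0.58 and Npas1 at -0.41. Most markers of cortical projection neurons were also higher on the GFP+ array of day 12, by a median of 0.43 over 12 genes. Slc17a6 was at 2.01, Neurod1 at 1.60 and Tbr1 at 1.39, whereas Emx1 was at -0.24, Crym at -0.11 and Sox5 at -0.01. In GFP- cells Neurod1 was also higher on day 12, by 0.84. The summed linear signal of the 12 genes in GFP+ cells was 1309, against 769 and 1010 on day 11 and day 13. The 10 measured markers of telencephalic and cortical progenitors were higher too, by a median of 0.66, with Emx1 among those that went the other way. Their summed signal in GFP+ cells was 9297 on day 12, against 5136 and 4379 on day 11 and day 13. In GFP- cells it was 13091, against 10076 and 9943. The 14 ventral GABAergic markers had a median of -1.21, and Bcl11b was at -0.74. Prox1, Npas1, Slc17a6, Neurod1, Emx1 and Crym were named after their values had been seen. The part of these cell types in the day 12 values was not tested. With 1 array a day this contrast has no test, and day, culture and array cannot be told apart.

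**Figure D3:**
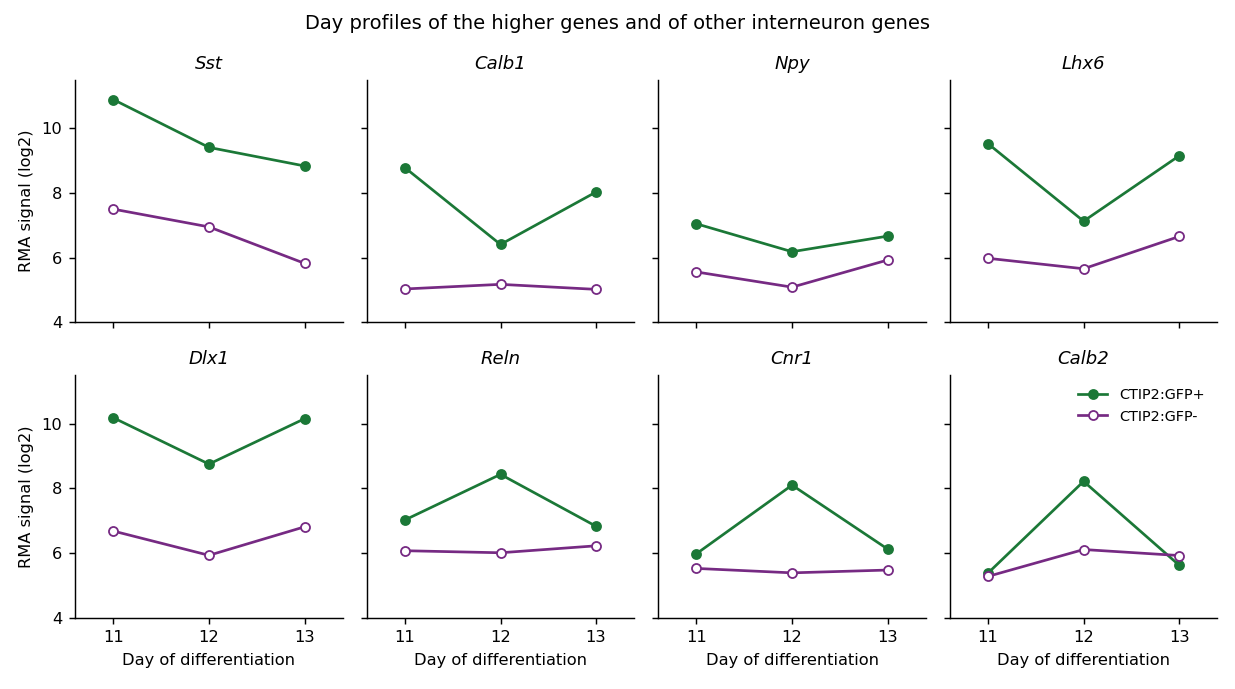
Log2 RMA signal (vertical axis) by day of differentiation (horizontal axis) of Sst, Calb1 and Npy and of 5 other genes, 1 point per array, filled for CTIP2:GFP+ and open for CTIP2:GFP- cells. On day 12 the GFP+ signals of Calb1, Lhx6 and Dlx1 dip, to -2.0, -2.21 and -1.42 relative to the mean of the other days, while those of Calb2, Cnr1 and Reln peak, at 2.72, 2.05 and 1.51 above it.

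The genes whose profile over the 6 arrays was most like that of a member were sought among 5444 genes with a range of at least 1 log2 unit. For Sst they were Rusc1, Camk2n1 and Asphd1 (Pearson r = 0.990, 0.988 and 0.983). For Npy they were Dpf1, Dlgap2 and Dlx5 (0.994, 0.990 and 0.988), and for Calb1 Rpp25, Pde2a and Pde4dip (0.992, 0.992 and 0.990). Between the members r was 0.913 for Npy with Calb1, 0.874 for Sst with Calb1 and 0.771 for Sst with Npy. These are descriptions over 6 arrays that share the fractions and days, and no p was computed.

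The receptors through which the peptides act showed no gene past the test. All 22 neuropeptide receptors were measured, 0 were higher and 0 lower, and their median difference was -0.05. The somatostatin and cortistatin receptors Sstr1 to Sstr5 had mean differences of -0.21 to 0.14, and the neuropeptide Y receptors Npy1r, Npy2r, Npy4r, Npy5r and Npy6r of -0.18 to 0.18. Sstr2 changed sign, at -0.76 and -0.96 on day 11 and day 12 and 1.11 on day 13, and its GFP- signal was 6.59, 7.33 and 5.19. The largest mean with a single direction was that of Oprl1, the nociceptin receptor, which stood at 6.55, 6.99 and 6.28 in GFP+ cells and at 5.46, 5.65 and 5.58 in GFP- cells (difference 1.05, limma adjusted p = 0.060, and 0.041 without day 12). Oprm1, the mu opioid receptor, differed by 0.22 (adjusted p = 0.522).

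Of 18 genes for processing peptides and for dense-core vesicles, 17 were measured, 1 was higher and 0 lower, with a median difference of 0.48. The gene that rose was Cadps, which primes dense-core vesicles for release. It stood at 7.99, 8.71 and 7.93 in GFP+ cells and at 6.98, 6.94 and 5.78 in GFP- cells (difference 1.64, limma adjusted p = 0.045). The call was lost without day 13 (adjusted p = 0.087) and with no replicate block for the day (adjusted p = 0.125). It was also lost with quantile normalization (limma adjusted p = 0.098) and by Student's t-test (adjusted p = 0.467). In the unblocked fit that left out the day 13 GFP- array the limma adjusted p was 0.085. Over 2-fold higher were 3 genes of the list, Cadps, Scg3 and Chga, of which the last 2 encode granins and were named after their values had been seen. Scg3 differed by 1.27 (adjusted p = 0.107), with 0.72, 0.96 and 2.12 on day 11, day 12 and day 13.

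None of 33 other neuropeptide genes measured (of 35 listed) passed in either direction, and their median difference was -0.12. By day it was -0.04, 0.04 and -0.32 on day 11, day 12 and day 13, the last with the GFP- array that stood apart. Pnoc, the precursor of nociceptin, the ligand of the Oprl1 receptor, stood at 6.62, 6.81 and 6.74 in GFP+ cells and at 5.95, 5.92 and 6.19 in GFP- cells (difference 0.70, limma adjusted p = 0.090, and 0.038 in the unblocked fit that left out the day 13 GFP- array). Adcyap1, the precursor of PACAP, a relative of Vip, differed by -0.43 (adjusted p = 0.390), and by -0.20 without day 13. Its GFP- value of day 13, 5.65, was its highest, as for Vip.

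Of 26 other neuronal EF-hand proteins, 25 were measured and 0 passed in either direction, with a median of -0.08. Kcnip1, a subunit that binds potassium channels, differed by 1.30 (limma adjusted p = 0.059) and was higher on day 12, at 7.48 in GFP+ cells, than on day 11 and day 13, at 6.43 and 6.11. It passed without day 11 (adjusted p = 0.0078) and without day 12 (adjusted p = 0.022). Calm3, a calmodulin gene, differed by 0.97 (adjusted p = 0.159), by 0.62 without day 13, and by 1.30 without day 12, where it passed (adjusted p = 0.013). All 20 other markers of interneuron classes were measured and 0 passed, with a median of 0.08. Reln differed by 1.33 (adjusted p = 0.152) and Cnr1 by 1.27 (adjusted p = 0.252), both with their largest difference on day 12, of 2.42 and 2.71. Without day 12 they differed by 0.78 and 0.55, and without day 11 both passed (limma adjusted p = 0.0098 and 0.0048). With a day left out the error is drawn mostly from all genes. These passes, and those of Kcnip1 and Calm3, are therefore no firmer than the full fit.

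**Figure D4:**
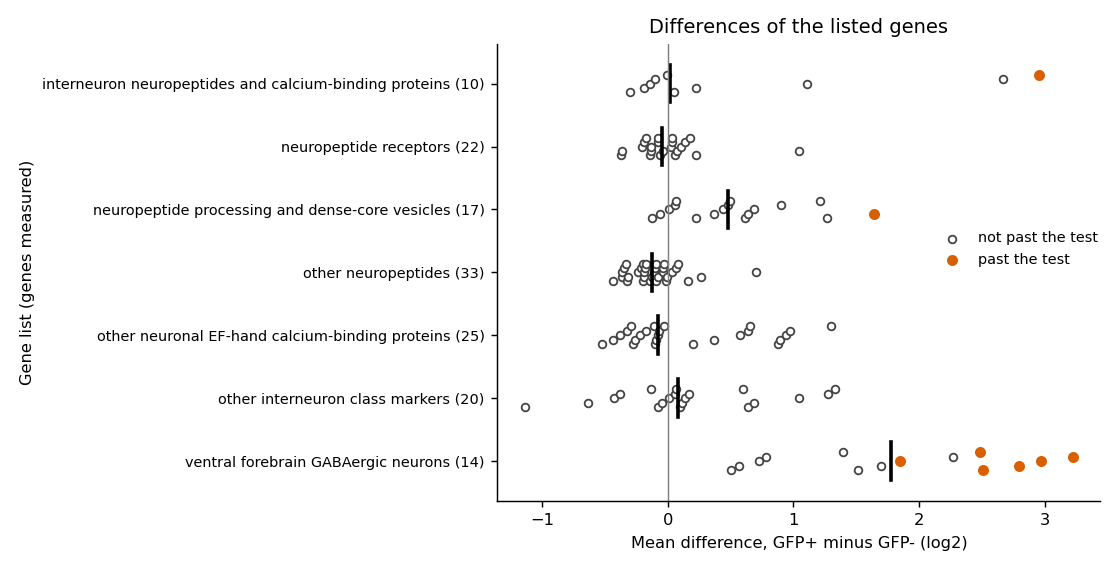
Mean log2 difference of GFP+ minus GFP- cells (horizontal axis) of every measured gene in 7 lists (vertical axis, number of genes measured in parentheses), filled where the adjusted p was under 0.05, with a bar at the median of each list. The members spread from -0.30 to 2.95 around a median of 0.02, while the 14 ventral GABAergic genes are all above 0 around a median of 1.78.

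Markers of cell types moved with the fractions beside Sst. Of 18 markers of ventral forebrain GABAergic neurons, 14 were measured, 6 were higher and 0 lower, with a median difference of 1.78. Their summed linear signal was 3710 to 8919 on the GFP+ arrays and 1444 to 1630 on the GFP- arrays, and 0 of the 14 lay below the array median on all 6 arrays. Among them, Dlx1, a homeobox factor of these neurons, differed by 3.22 and Erbb4, a neuregulin receptor of migrating interneurons, by 2.97 (limma adjusted p = 0.022 and 0.024, and 0.052 and 0.068 without day 13).

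Of 11 markers of telencephalic and cortical progenitors, 10 were measured, 0 were higher and 4 lower, with a median of -0.87 and summed signals of 4379 to 9297 on the GFP+ arrays and 9943 to 13091 on the GFP- arrays. Slc1a3, a glutamate transporter of radial glia, differed by -2.72 and Nes, the progenitor filament nestin, by -1.52 (adjusted p = 0.024 and 0.025, and 0.052 and 0.058 without day 13). With no replicate block the adjusted p of Slc1a3 was 0.098, and with quantile normalization that of Nes was 0.071. Of 14 markers of cortical projection neurons, 12 were measured and 0 passed, with a median of -0.14 and summed signals that overlapped, 769 to 1309 against 964 to 1057. The largest with a single direction were Tbr1, a factor of deep-layer neurons, at 0.74, and Sox5, another deep-layer factor, at -0.24. Without day 12 the difference of Tbr1 was 0.22. On day 12 the summed signal was 1309 in GFP+ and 1057 in GFP- cells, and the median difference of the list was 0.20. Slc17a6, Tbr1, Neurod6 and Neurod2 were higher in GFP+ cells by 2.13, 1.78, 1.21 and 0.82. Crym, Sox5, Fezf2 and Tle4 went the other way, at -1.10, -0.28, -0.18 and -0.11. Neurod6, Neurod2, Crym, Fezf2 and Tle4 were also named after their values had been seen. The labels call the cells cortical progenitors.

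For the 17 of 19 measured markers of the lateral ganglionic eminence and striatum, 1 was higher and 0 lower, with a median difference of -0.002. On all 3 days 3 of the 17 were higher and 3 lower. The gene past the test was Pde10a, a phosphodiesterase of striatal neurons, at 1.53 (limma adjusted p = 0.025, and 0.052 without day 13). Of 14 hypothalamic and diencephalic markers, 0 were higher and 1 was lower, with a median of -0.32. By day their median was -0.26, -0.12 and -0.70 on day 11, day 12 and day 13. The GFP- array of day 13 is the one that stood apart. The lower gene was Tcf7l2, a WNT pathway factor, at -1.01 (limma adjusted p = 0.041). Its adjusted p was 0.053 without day 11, 0.064 without day 13 and 0.069 with quantile normalization. What part these cell types have in the differences of Sst, Npy and Calb1 was not tested.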

How the data were processed

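The 6 samples, 1 per fraction and day, went on one GeneChip Mouse Gene 1.0 ST array each. The deposited values are log2 signals that the authors calculated with RMA 16 in GeneSpring. Not given in the sources used here are the genome build, the annotation version, any filter, and whether normalization was joint. Of 28853 probe sets, 21789 had 1 gene symbol, 1621 several and 5443 none, and the Entrez IDs of 21698 were found in RefSeq's GRCm38.p6 gene table, with 0 symbols changed. Where several such probe sets measured a gene (999 genes), the brightest on average was kept, and each member had 1.
Fraction and day were factors in a fit by limma 3.58.1 under R 4.3.3 (2 residual degrees of freedom), followed by eBayes, two-sided, with Benjamini-Hochberg adjustment over 19938 genes and a threshold of 0.05. The code was tested on simulated data. The study's results use a 2-fold threshold for the arrays, its microarray methods name no test, and Student's t-test is named only for its experiments at large. Day pairs the fractions, from the labels. After subtracting fraction means, the Pearson correlation of a day's pair of arrays across genes was 0.112, 0.558 and 0.368, in the order day 11, day 12, day 13. For the day 11 GFP+ array a GFP- array of another day gave a higher value (0.297). A slope per day and an interaction were also fitted, with day as a number and no block for the day.
The members and lists were chosen with earlier results of these data known. Genes named are the members, receptors of members over 2-fold different, listed genes past the test, otherwise the 2 per list with the largest mean difference among those of 1 direction on 3 days (at most 2 for the cell type lists), and the 3 nearest profiles. Alternatives to the blocked fit were no block, each day left out, no block without the day 13 GFP- array, median centring and quantile normalization. Others were the mean of probe sets, 2 filters on dim probe sets, trended robust eBayes and the methods' t-test. With a day left out, the error of a gene is drawn mostly from that of all genes, so a pass there is no firmer than the reported fit.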

Additional observations from a re-analysis of the deposited data

Results flagged for a closer look

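The difference of Vip on day 13, -1.18, ran against those of 0.15 and 0.13 on day 11 and day 12. Each day has 1 array per fraction, so the difference between the days was not tested on its own. The slope of the difference over the days had an unadjusted limma p of 0.0815 and an adjusted p of 0.999. The GFP- array of day 13, which gave the high Vip value of 5.91, is the one that stood apart from the others.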

How the results depend on the processing

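Sst, Calb1, Npy, Cort and Tac1 were higher in GFP+ cells in every alternative run, and Cck was lower in every one. For the dim Tac1 the difference was only 0.0056 to 0.144, and for Cck it was -0.273 to -0.111. Over all members and alternatives, 90 values kept direction and side of the threshold, 9 passed where the reported fit did not, 5 lost the call and 9 turned sign. The signs that turned were all far from the threshold. An unblocked fit leaving out the day 13 GFP- array gave 0.11 for Vip and 0.076 for Pdyn. For Penk, median centring gave 0.053 and quantile normalization 0.086. With a day left out, Vip ran from -0.52 to 0.14, Penk from -0.13 to 0.074, Pdyn from -0.26 to 0.056 and Pvalb from -0.22 to 0.0046, and without day 13 the sign turned for Vip, Pdyn and Pvalb. The count of members higher, 1 as reported, was 0 with no replicate block, 0 in the unblocked fit leaving out the day 13 GFP- array, 0 with median centring, 0 by the methods' t-test, 3 with either filter on dim probe sets, 3 with trended robust eBayes, and 0 to 3 with a day left out (0 without day 13, 2 without day 11, 3 without day 12). By the methods' t-test 4 members had an unadjusted p under 0.05. The count of genes higher, 159 as reported, was 84 with no replicate block, 0 with median centring, 52 with quantile normalization, 387 and 703 with the filters at the 20th percentile and at the median, 549 with trended robust eBayes, 0 by the methods' t-test (1756 genes of either direction at an unadjusted p under 0.05), and 0 to 930 with a day left out. The count of genes lower, 113 as reported, was 41 with no replicate block, 0 with median centring, 226 and 337 with the filters, 510 with trended robust eBayes, 0 by the t-test, and 0 to 229 with a day left out. At an unadjusted p under 0.05, 2615 genes stood out with median centring. Genes over 2-fold higher, 392 as reported, numbered 210 in the unblocked fit leaving out the day 13 GFP- array and 243 to 728 with a day left out. The cause of these changes was not tested. Each member had a single probe set, so the alternative of another probe set on its own gave no value and averaging over probe sets left its difference as it was. Only Sst, Calb1 and Npy passed the filter at the median. That filter used the mean over all 6 arrays, with a cut-off of 5.43. The GFP- values of Calb1, 5.03, 5.17 and 5.02, lay below it, so Calb1 passed the filter only through its GFP+ values. Its call under that filter is therefore no separate support. With 2 residual degrees of freedom and 38 of 42 signals of the 7 other members below the array median, small differences of those members could have been missed.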
